A study of Mus musculus with 16 samples.

Results

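Among the 17999 DNase I hypersensitive sites (DHS) of mouse liver that were found in all 4 peak lists of the study, 757 DHS had a higher rank in C57BL/6J (B6) than in CAST/EiJ (CAST) mice by at least 15 percentile points in males and again in females. These B6-higher DHS were chosen by measured values: overlapping peaks of the 4 lists on the 19 autosomes were joined into 50655 regions, each peak was given its percentile rank (0 to 100) by MACS2 fold enrichment within its own list, and the rank in CAST was subtracted from the rank in B6 within each sex. The choice therefore fixes the direction and the least size of the strain difference, and ranks, folds, peak heights and peak widths of B6 against CAST are given below as a description, with no test. The same rule turned around found 827 CAST-higher DHS, which serve as a comparison together with all shared DHS.

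DNase I cut sites were sequenced from the livers of males and females of both inbred strains at 8 weeks of age by the sample labels, from nuclei digested with 32 U of DNase I. B6 is the common laboratory strain from which the mouse reference genome was built, and CAST is an inbred strain of wild origin that belongs to another subspecies. Each of the 4 groups (male B6, female B6, male CAST and female CAST) had 4 libraries, and the authors called peaks on the pooled 4 libraries of a group, so that every group is represented by 1 list and no spread between animals can be given. No mouse of any group carried a transgene, a deletion or a treatment by the labels. B6 reads were aligned to mm9, whereas CAST reads were aligned to an mm9 sequence into which CAST variants had been written, with positions then returned to mm9; strain and alignment reference cannot be told apart in these lists. Whole liver holds hepatocytes together with endothelial, stellate, bile duct and immune cells, and fewer cells of a type and less open chromatin per cell cannot be told apart in it.

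A DHS is a stretch of chromatin from which nucleosomes have been displaced, usually by bound transcription factors, so that DNase I can cut the DNA there. DHS mark promoters, enhancers and insulators, and in liver many distal ones are held open by hepatocyte factors such as the FOXA, CEBP and HNF families, whereas promoters of widely expressed genes are GC-rich and open in most cell types. Sequence differences between mouse strains within or near such elements can change how open they are, and growth hormone secretion patterns make a further set of liver DHS differ between the sexes.

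The 6 B6-higher DHS with the largest strain difference, ordered by the smaller of the male and female differences, are shown first as mm9 reference sequence, because the strain difference is plainest at these elements. Each line gives the plus strand from 120 bases before to 120 bases after the summit of the peak in the male B6 list, the summit used throughout, with the nearest gene as the name, and capitals mark every match on either strand to 24 short motifs of liver and general transcription factors. The CAST sequence was not used here, so the lines do not show where the strains differ.
Svip DHS, chr7:59261430-59261670 (+): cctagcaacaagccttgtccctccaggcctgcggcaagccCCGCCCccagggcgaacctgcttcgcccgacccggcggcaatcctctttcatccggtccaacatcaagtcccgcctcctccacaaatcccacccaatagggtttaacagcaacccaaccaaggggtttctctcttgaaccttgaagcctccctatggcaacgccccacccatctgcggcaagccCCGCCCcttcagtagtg
1190005I06Rik DHS, chr8:123143564-123143804 (+): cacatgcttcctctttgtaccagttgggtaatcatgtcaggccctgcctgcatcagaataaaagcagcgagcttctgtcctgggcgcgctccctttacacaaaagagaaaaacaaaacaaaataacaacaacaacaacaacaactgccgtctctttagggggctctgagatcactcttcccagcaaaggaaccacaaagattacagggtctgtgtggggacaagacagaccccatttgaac
Psen2 DHS, chr1:182159982-182160222 (+): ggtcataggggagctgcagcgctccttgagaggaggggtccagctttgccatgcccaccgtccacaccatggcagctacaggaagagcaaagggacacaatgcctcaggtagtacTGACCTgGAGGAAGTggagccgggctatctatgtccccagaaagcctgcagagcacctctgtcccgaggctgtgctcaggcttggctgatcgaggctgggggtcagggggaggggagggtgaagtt
Bcar3 DHS, chr3:122185063-122185303 (+): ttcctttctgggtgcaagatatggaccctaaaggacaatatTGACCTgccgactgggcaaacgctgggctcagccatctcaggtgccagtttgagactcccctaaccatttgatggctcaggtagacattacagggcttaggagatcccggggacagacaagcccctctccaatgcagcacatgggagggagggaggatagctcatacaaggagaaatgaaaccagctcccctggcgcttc
Klrb1c DHS, chr6:128753115-128753355 (+): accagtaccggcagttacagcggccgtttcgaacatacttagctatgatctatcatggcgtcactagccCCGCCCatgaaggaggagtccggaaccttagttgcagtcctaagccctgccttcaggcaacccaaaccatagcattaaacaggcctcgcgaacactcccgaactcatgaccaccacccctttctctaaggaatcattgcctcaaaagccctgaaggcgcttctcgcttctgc
Gm15200 DHS, chr10:42443564-42443804 (+): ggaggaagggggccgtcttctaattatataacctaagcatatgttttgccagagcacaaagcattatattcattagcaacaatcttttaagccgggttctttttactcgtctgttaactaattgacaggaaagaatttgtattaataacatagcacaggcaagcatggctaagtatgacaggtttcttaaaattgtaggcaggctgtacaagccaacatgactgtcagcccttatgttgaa

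Capitals in the Svip line mark 2 matches to the SP/KLF motif (GGGCGG), and the Klrb1c line holds 1 such match. In the Psen2 line the capitals are 1 nuclear receptor motif (AGGTCA) next to 1 PU.1 motif, and in the Bcar3 line 1 nuclear receptor motif. The 1190005I06Rik and Gm15200 lines hold no match to the 24 motifs. A match is a string of letters and not a measured binding site, and the SP/KLF string is present in 37.0% of all shared DHS within 150 bases of the summit.

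Svip encodes a small protein that interacts with the VCP ATPase, and the DHS over its start site (chr7:59260946-59262029) led the B6-higher set. Its rank was 94.8 in B6 males and 93.5 in B6 females, but 26.6 in CAST males and 16.6 in CAST females. The fold enrichment was 9.70 and 7.24 in male and female B6 and 2.75 and 2.89 in male and female CAST, which corresponds to peak heights of 351, 188, 42 and 25 reads in the same order. Both B6 lists thus held it among their stronger peaks and both CAST lists among their weaker ones.

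The DHS in an intron 13995 bp from the start of 1190005I06Rik (chr8:123143175-123144268) ranked 83.4 and 78.7 in male and female B6 and 16.9 and 9.17 in male and female CAST. Psen2 encodes a catalytic subunit of gamma-secretase, and the DHS at its start site (chr1:182159727-182160710) ranked 65 and 75.1 in B6 males and females and 7.24 and 5.14 in CAST. The DHS in an intron of Bcar3, a signalling adaptor, lay 62051 bp from the start site (chr3:122184749-122185504). It ranked 87.2 and 88.4 in B6 males and females and 30.3 and 15.3 in CAST. At each of these 3 DHS the lower of the B6 ranks lay well above the higher of the CAST ranks.

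Klrb1c encodes the NK1.1 receptor of natural killer cells, and the intergenic DHS 13638 bp from its start (chr6:128752871-128753435) had the largest difference in females among all members, 84.7 points. Its ranks were 97 in B6 males, 87.1 in B6 females, 42.2 in CAST males and 2.31 in CAST females, with folds of 11, 5.90, 3.34 and 2.35. The Gm15200 DHS (chr10:42443186-42444062), 24862 bp from the start site, ranked 92.9 and 76.3 in B6 males and females and 31.2 and 21.5 in CAST. The DHS at the start of Gbp7, an interferon-induced GTPase (chr3:142192882-142193877), ranked 74.1 and 70.9 in B6 and 20.4 and 10.1 in CAST males and females.

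The 20 leading DHS were spread over many kinds of genes. Besides those above they lay nearest to Ece1 (an endothelin-converting enzyme), Gm5528, Spink5 (a serine protease inhibitor), Rab23 (a small GTPase), Azin1 (an antizyme inhibitor), Tox3 (an HMG-box protein), Prkag2 (a regulatory subunit of AMP-activated kinase) and Zdhhc13 (a palmitoyltransferase). The others lay nearest to Gpd1 (glycerol-3-phosphate dehydrogenase), Pgd (6-phosphogluconate dehydrogenase of the pentose phosphate pathway), Fam198a, Aqp8 (an aquaporin) and Acad11 (an acyl-CoA dehydrogenase). Over these 20 DHS the rank ran from 62.7 to 97 in B6 males and from 55.1 to 93.5 in B6 females, against 7.24 to 48.9 in CAST males and 0.739 to 29.1 in CAST females. In each DHS of the 20 both B6 ranks were above both CAST ranks. Of the 20, 14 were promoter-distal, meaning that no annotated start site lay within 2.5 kb of the region. The largest ranks in B6 males were those of Klrb1c and of a DHS 43238 bp from Tox3, the latter at 96.4 in B6 males, 71.8 in B6 females, 48.9 in CAST males and 6.98 in CAST females.

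**Figure D1:**
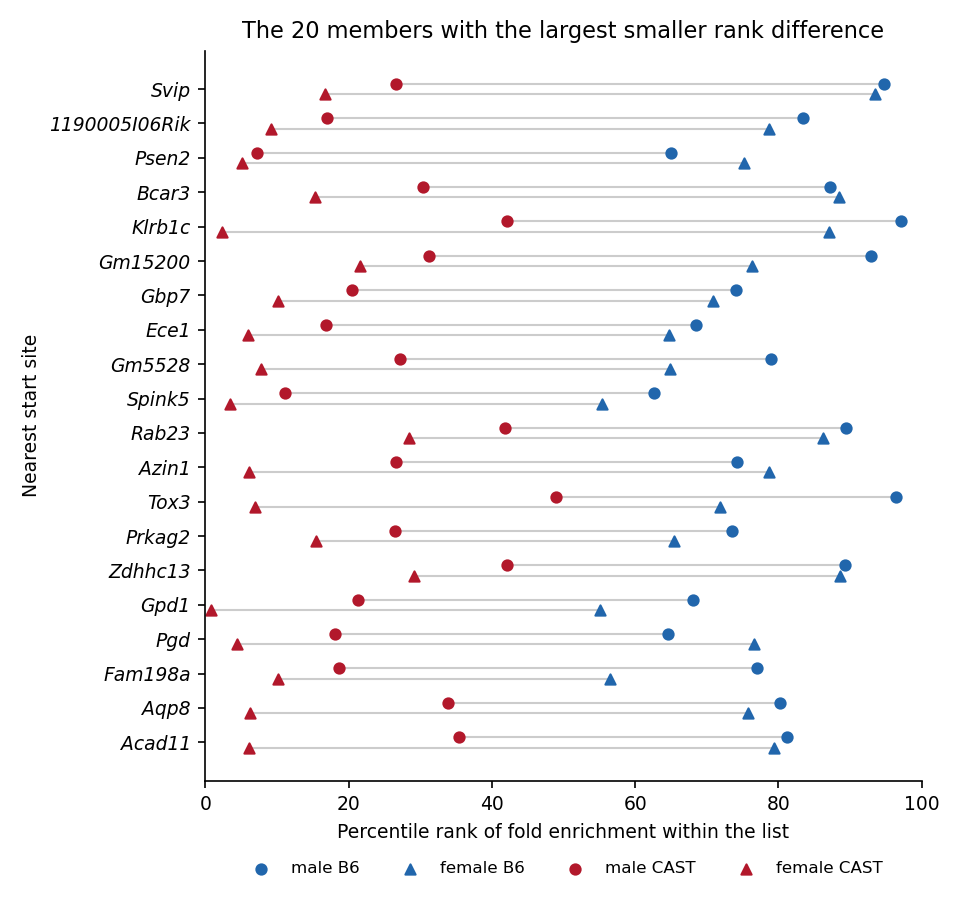
Percentile rank of fold enrichment (x axis, 0 to 100) in each of the 4 peak lists for the 20 leading B6-higher DHS, named by nearest gene (y axis). Each point is 1 list of 4 pooled libraries, and in every DHS both B6 points lie to the right of both CAST points.

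Across all 757 members the median rank was 72.5 in B6 males, 61.5 in B6 females, 48.2 in CAST males and 26.5 in CAST females. All shared DHS had medians of 74.6, 63.8, 74.8 and 61.3 in the same lists. The B6 ranks of the members lay close to those of all shared DHS and their CAST ranks lay lower. CAST-higher DHS mirrored this, with medians of 48.3, 29.9, 77.7 and 65.1, so the pattern goes with the rule. The lists differ in their numbers of peaks, and a rank is relative to its own list.

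The difference of B6 minus CAST rank had a median of 21.6 points in males (interquartile range 17.8 to 28.2, highest 68.2) and of 30.4 points in females (22.5 to 39.99, highest 84.7). It was larger in females in 562 of 757 members (74.2%), but this order depends on how ranks are taken: with ranks over the shared DHS only, the medians of the same members were 29.4 in males and 27 in females. All shared DHS had medians of 0.240 in males and 1.60 in females. Both B6 ranks were above both CAST ranks in 648 members (85.6%), the highest of the 4 ranks was that of male B6 in 645, and the lowest was that of female CAST in 702. By the rule the highest rank is always a B6 one and the lowest a CAST one. Male ranks were higher over all shared DHS as well, so these counts are no trait of the members.

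By peak height the members had medians of 137 reads in B6 males, 71 in B6 females, 78 in CAST males and 34 in CAST females. All shared DHS had medians of 146, 76, 146 and 56 reads, so in females the reads were fewer in CAST over all shared DHS as well. Median folds of the members were 5.12, 3.75, 3.63 and 3.15 in the same order, against 5.35, 3.88, 5.8 and 4.66 over all shared DHS. The ratio of the B6 to the CAST fold had a median of 1.37 in males and 1.16 in females. All shared DHS had 0.944 and 0.843, that is, toward CAST. CAST-higher DHS had 0.579 and 0.566, so the 2 sets mirrored each other in rank but not in fold. The fold itself was higher in B6 in 757 members in males and in 678 (89.6%) in females, so in the remaining members the female rank was higher in B6 although the fold was not. A fold at least 1.5 times as high in B6 in both sexes was found in 58 members, and one at least 2 times as high in 5. Thus most members differed by less than 1.5 times in fold in at least 1 sex, and a wide gap in rank often went with a narrow gap in fold.

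Median peak widths of the members were 742 bp in B6 males and 605 bp in B6 females against 627 bp in CAST males and 440 bp in CAST females. All shared DHS had medians of 805, 647, 789 and 600.0 bp in the same lists, so female peaks were wider in B6 there too. Peaks were wider in B6 in both sexes in 442 members. The median B6 to CAST width ratio was 1.15 in males and 1.28 in females, against 1.01 and 1.06 over all shared DHS. The local background that MACS2 set beside each peak, relative to the list's genome-wide background, differed little between the strains, with a median B6 to CAST ratio of 1.08 in males and 1.0 in females (1.01 and 0.959 over all shared DHS). Its part in the rank difference was not tested. A single peak per list made up 716 of the members (94.6%) and 17011 of the 17999 shared DHS. In 669 members every 31-base word of the reference window occurred once in mm9. The lower quartile of the share of such words was 100% in the members and in all shared DHS alike.

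Of all shared DHS, 4.21% were B6-higher and 4.59% CAST-higher in both sexes. In males alone 1428 DHS (7.93%) ranked at least 15 points higher in B6, and in females alone 3515 (19.5%). The 757 members are 53.0% of the male set and 21.5% of the female set. A difference of at least 15 points in the opposite direction in the other sex was seen in 88 of the 1428 male DHS (6.16%) and in 4.64% of the 3515 female DHS. Over the 17999 shared DHS the male and female strain differences had a Pearson r of 0.457 and a Spearman rho of 0.41, a description over regions of the same 4 lists. The male and female lists come from separate libraries, but each strain has its own alignment reference in both sexes.

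**Figure D2:**
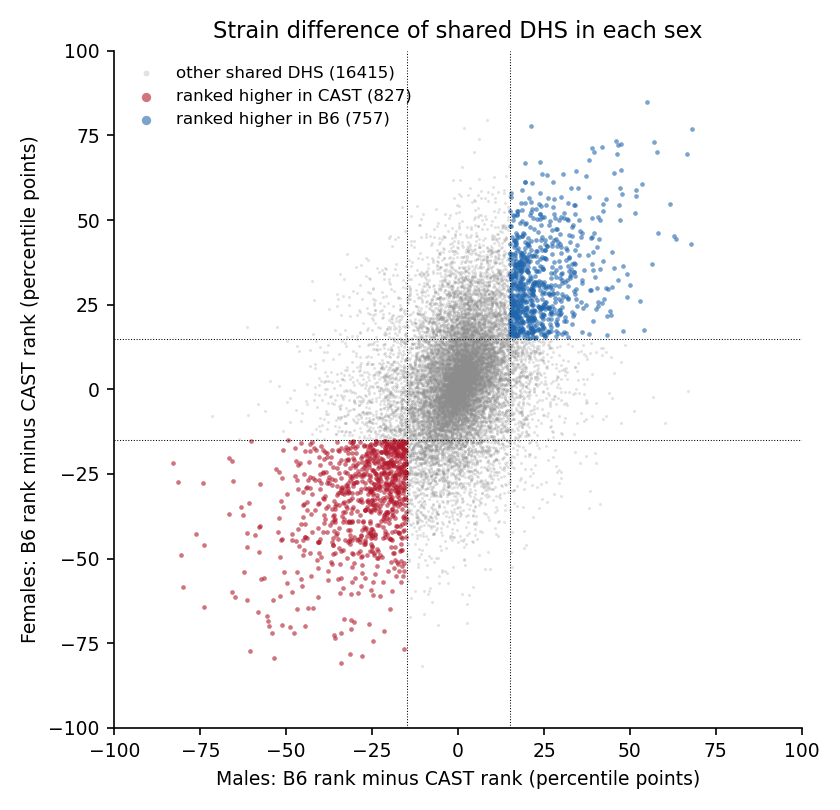
B6 minus CAST rank difference in males (x axis) and in females (y axis), in percentile points, for the shared DHS. Lines mark 15 points, and the 757 B6-higher DHS fill the upper right corner by their selection, opposite to the 827 CAST-higher DHS.

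At the limit itself the DHS nearest to Aard was the closest inside, with differences of 15.03 in males and 40.1 in females. The DHS nearest to Fbxo34 was also just inside, with 15.06 in males and 16.3 in females. Just outside were the DHS nearest to Gcnt2 (14.97 in males and 27.3 in females), Osr2 (19.2 in males and 14.96 in females) and Arl4d (14.96 in males and 26.5 in females). DHS on both sides of the limit are thus alike, and 383 of the 757 members (50.6%) cleared 20 points in both sexes and 107 (14.1%) cleared 30.

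The position of the DHS was not used in their choice. Of the 757 members, 426 were promoter-distal, 56.3% (Wilson 95% interval 52.7 to 59.8). The share was 45.6% (44.8 to 46.3) among all shared DHS and 76.3% (73.3 to 79.1) among CAST-higher DHS. An annotated start site lay inside 35.0% of the members, 46.5% of all shared DHS and 11.6% of CAST-higher DHS. The B6-higher DHS thus held more promoter-distal sites than the shared DHS in general and fewer than the CAST-higher DHS. These intervals cover counting error only, regions of a chromosome are not independent, and the differences were not tested.

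The members had a lower mean rank over the 4 lists (median 51.6) than all shared DHS (67.3). Within bands of mean rank the members' promoter-distal share was 54.7% at 20 to 40, 58.2% at 40 to 60 and 53.1% at 60 to 80. All shared DHS of the same bands had 56.4%, 54.7% and 45.4%, and CAST-higher DHS 66.0%, 78.4% and 78.6%. Above 80 it was 73.7% of 19 members (51.2 to 88.2) against 33.5% of all shared DHS, and below 20 it was 1 of 4 members (25%) against 49.7%. At a matched mean rank of 20 to 60 the members' share thus lay close to that of all shared DHS, above 60 it was higher, and the share of CAST-higher DHS was the largest of the 3 in each band from 20 to 80. Members made up 7.44% of shared DHS of mean rank 20 to 40, 8.00% at 40 to 60, 3.79% at 60 to 80 and 0.352% above 80.

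**Figure D3:**
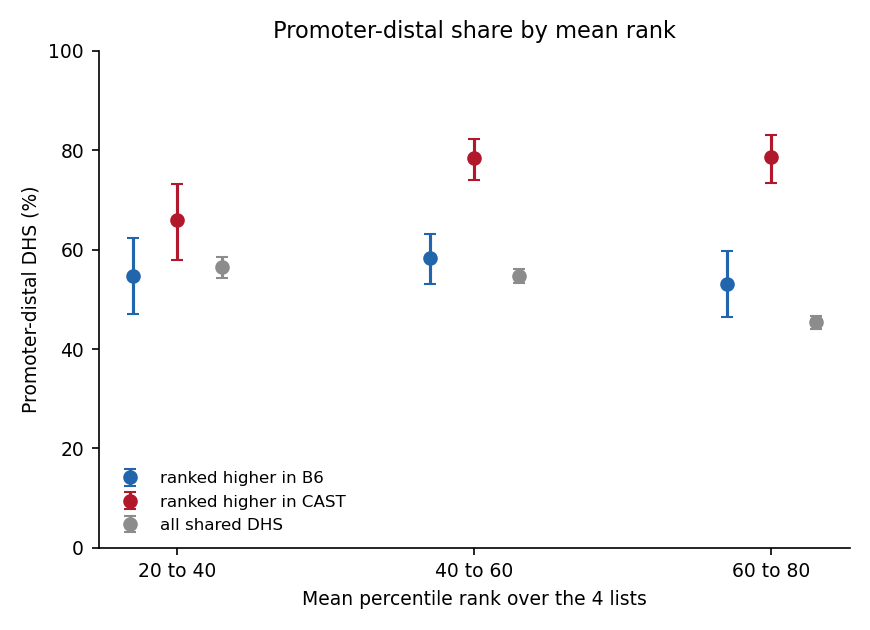
Share of promoter-distal DHS (y axis, percent) in bands of mean percentile rank over the 4 lists (x axis) for B6-higher, CAST-higher and all shared DHS, with Wilson 95% intervals for counting error. In the 40 to 60 band the B6-higher DHS (58.2%) lie near all shared DHS (54.7%) and below the CAST-higher DHS (78.4%).

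By the annotation at the summit 348 members (46%) were intergenic, 249 (32.9%) lay in introns, 111 (14.7%) in untranslated or non-coding exons and 49 (6.47%) in coding exons. The same shares over all shared DHS were 41.3%, 34.5%, 18% and 6.30%, so the members held a somewhat larger intergenic share (interval 42.5 to 49.5) and a smaller one in untranslated or non-coding exons (12.3 to 17.4). The median distance from a promoter-distal member to its nearest start site was 20919.5 bp, and 42 members (5.55%) lay over 100 kb away, as did 4.93% of all shared DHS. Strain differences of promoter-distal members (medians of 21.9 points in males and 31 in females) were close to those of the other members (21.3 and 29.5).

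Base composition followed position. The median GC content within 150 bases of the summit was 52.5% in the members, 54.5% in all shared DHS and 48.8% in CAST-higher DHS. Among promoter-distal DHS the medians were 48.5%, 47.8% and 47.8%, so the members were near the other distal DHS. Within 2.5 kb of a start site they were 63.1%, 63.8% and 53.8%. The strain difference also moved with GC content over all shared DHS, since the median B6 minus CAST difference ran from -1.08 under 40% GC to 4.34 at 70% GC and above in females and from -0.694 to 1.60 in males. Members made up 5.34% of shared DHS under 40% GC and 3.05% at 70% and above, and CAST-higher DHS 7.92% and 1.06%. The part of GC content in the strain difference was not tested.

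**Figure D4:**
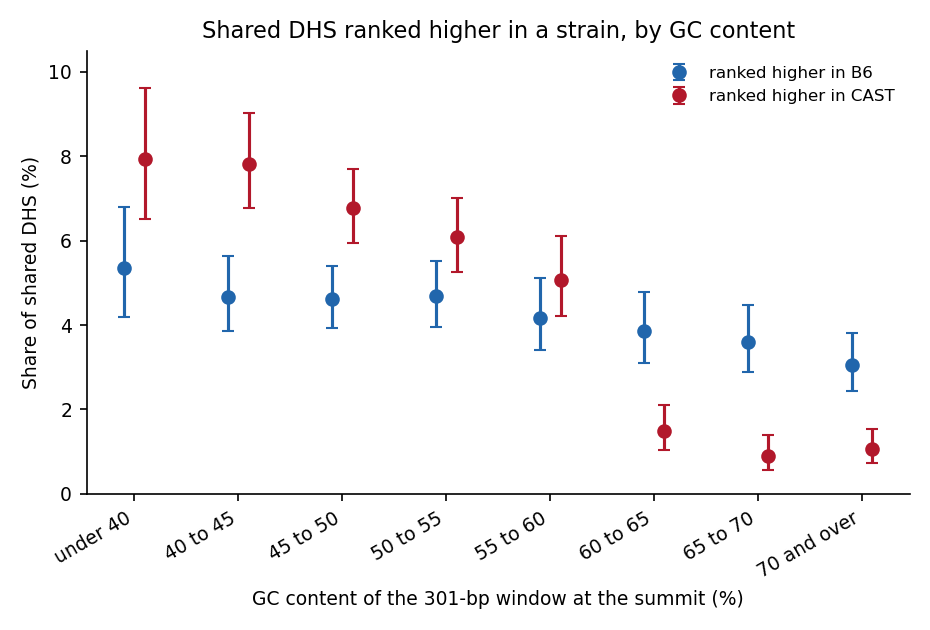
Share of shared DHS that were B6-higher or CAST-higher in both sexes (y axis, percent, with Wilson 95% intervals) by GC content within 150 bases of the summit (x axis, percent). The CAST-higher share runs from 7.92% in the lowest band to 1.06% in the highest, and the B6-higher share from 5.34% to 3.05%.

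Motif matches were counted on both strands within 150 bases of the summit, and among promoter-distal members 3 motifs had shares that lay apart from those of CAST-higher DHS. The STAT motif (TTCNNNGAA), bound by the STAT factors that act downstream of growth hormone and cytokines, was present in 31 distal members, 7.28% (5.17 to 10.1). It was present in 11.3% of all distal shared DHS and in 14.7% (12.2 to 17.7) of distal CAST-higher DHS. The core of the CTCF motif (AGNNGGCGC), the factor of insulators and loop anchors, was in 14 distal members, 3.29% (1.97 to 5.44), against 1.80% of all distal shared DHS and 0.475% of CAST-higher ones. SP/KLF motifs, typical of GC-rich promoters, were in 11.3% (8.60 to 14.6) of distal members, 9.11% of all distal shared DHS and 5.55% of CAST-higher ones.

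Motifs of most hepatocyte factors had shares in distal members near those of all distal shared DHS. FOXA motifs were in 16% of distal members and 15.5% of all distal shared DHS, CEBP motifs in 21.4% and 23.7%, and nuclear receptor motifs in 35.7% and 34.5%. HNF6 motifs stood lower, in 3.52% of distal members and 6.14% of all distal shared DHS. AP-1 motifs (TGANTCA), of the FOS and JUN factors, were in 11.7% and 10.9%. Within 2.5 kb of a start site the shares of the CTCF core (12.7% of members and 12.1% of all shared DHS) and of SP/KLF motifs (58.6% and 60.4%) were near each other, whereas CAST-higher DHS had 5.10% and 28.6%. With 24 motifs looked at, some shares may lie apart by counting error alone, and none of these differences was tested.

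**Figure D5:**
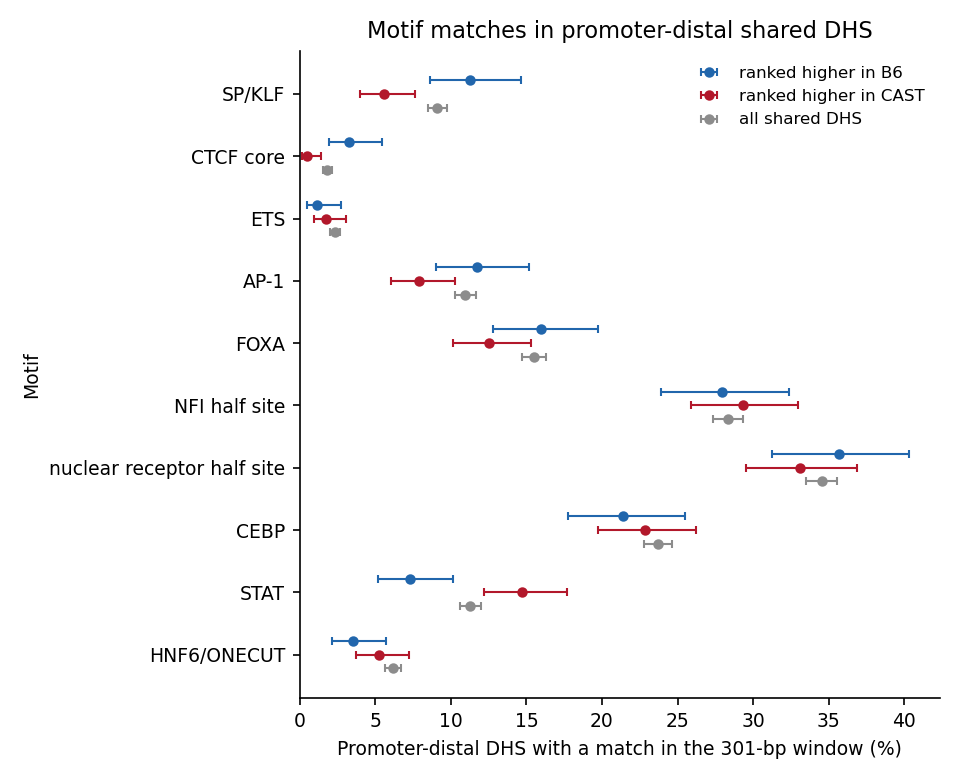
Share of promoter-distal DHS that hold a motif within 150 bases of the summit (x axis, percent, with Wilson 95% intervals for counting error) for each motif (y axis) in B6-higher, CAST-higher and all shared DHS. The STAT motif has 7.28% in B6-higher and 14.7% in CAST-higher DHS, and the CTCF core 3.29% and 0.475%.

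The other shared DHS next to a member were looked at for the same direction. Of the 489 other shared DHS within 10 kb of a member, 24.5% (20.9 to 28.5) ranked higher in B6 in both sexes by any amount and 40.3% ranked higher in CAST. The share higher in B6 was 32.9% at 10 to 50 kb, 36.6% at 50 to 200 kb and 34.8% beyond 200 kb. Median differences within 10 kb were -2.93 points in males and -0.728 in females, that is, toward CAST. Around CAST-higher DHS the share of other shared DHS higher in B6 was 39.7% within 10 kb, with 24.8% higher in CAST, and 39.7% beyond 200 kb. The neighbours of either set exclude that set's own DHS by construction, and the difference between distances was not tested. Within 10 kb of another member lay 16 members (2.11%), and within 10 kb of a CAST-higher DHS 39 (5.15%). Of the CAST-higher DHS 28 (3.39%) lay within 10 kb of their own kind and 41 (4.96%) within 10 kb of a member. Within 50 kb the shares near their own kind and near the other kind were 9.38% and 12.8% for members and 13.8% and 12.1% for CAST-higher DHS, so the order was not the same in both sets. A region found in both B6 lists and in neither CAST list lay within 50 kb of 18.8% of the members, 17.3% of CAST-higher DHS and 15.3% of the other shared DHS.

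The members were nearest to 737 genes, of which 19 had more than 1 member. The gene 4933407C03Rik had 3. Near Saa1, which encodes an acute phase apolipoprotein, the DHS chr7:53992686-53994902 ranked 86.9 and 82.4 in male and female B6 and 56.5 and 18.8 in male and female CAST. A further Saa1 DHS (chr7:54000607-54002350) ranked 88.0, 88.9, 72.6 and 71.9 in the same order. These were the only shared DHS nearest to Saa1, so both were higher in B6. Mogat1, a monoacylglycerol acyltransferase of triglyceride synthesis, likewise had 2 shared DHS and both were members, with ranks of 85.1, 79.7, 60.6 and 38.7 at the start site and of 85.7, 90.5, 66.2 and 41.7 at a site 30121 bp away. Adra1a, an adrenergic receptor, had 2 shared DHS and both were members.

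Apoh, a plasma glycoprotein that binds phospholipid, was nearest to 2 members out of 4 shared DHS. The first (chr11:108168347-108169078), which lies in an intron of Prkca 35590 bp from the Apoh start, ranked 97 and 93.6 in male and female B6 and 57.5 and 23.6 in male and female CAST. The second (chr11:108257172-108257998) ranked 76.7, 65.3, 49.6 and 31. Pygl, the liver glycogen phosphorylase, had 2 members among 3 shared DHS, with ranks of 84.7, 79.9, 45.8 and 35.2 at chr12:71334531-71335575 and of 56.8, 46.8, 39.9 and 0.683 at chr12:71327557-71329072. At these genes more than 1 element went the same way, which the choice of members fixes for the members themselves. In 83 of the 737 genes a CAST-higher DHS was nearest to the same gene, so the direction was not shared by all DHS of a gene.

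Lists of liver genes were compared by how many of their shared DHS were members, and 59 of the 1370 shared DHS nearest to a gene on any of 18 lists were (4.31%), close to the 4.21% over all shared DHS. Nearest here means the closest annotated start site, which need not be the gene a DHS acts on. Genes of the cytochrome P450 family, oxidases of drugs, steroids and bile acids, had 6 members of 91 shared DHS, beside 5 CAST-higher ones. Cyp2c70 (bile acid hydroxylation) had a member 39303 bp away that ranked 81.9 and 80.5 in male and female B6 and 40.1 and 8.93 in male and female CAST. Cyp3a11 (drug oxidation) had one with differences of 43 points in males and 29.9 in females, and Cyp17a1 (steroid synthesis) one with ranks of 58.6, 49.4, 30.6 and 11.9 in the same order as Cyp2c70. Conjugating enzymes had 3 members of 52 (Gstt2, Ugt2a3 and Gstz1) and transporters 7 of 127, led by a DHS near Slco1b2, an organic anion transporter, at 77.6, 63.8, 38.6 and 26.9. Carboxylesterases had 0 members of 23, which allows a share of up to 14.3% by the Wilson interval, and 4 CAST-higher DHS.

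Interferon and MHC genes had 4 members of 35 (11.4%, interval 4.54 to 26.0) and 0 CAST-higher DHS. Besides Gbp7 these lay at Irf5 and Irf9, both interferon regulatory factors, and at H2-Q10, a class I gene secreted by liver. The Irf5 DHS ranked 71.8 and 80.8 in male and female B6 and 37.5 and 16.2 in male and female CAST, and the H2-Q10 start site 86.4, 68.8, 61.4 and 44.6. Class I genes are similar to each other and differ between strains, and the part of alignment in the H2-Q10 difference was not tested. Over the 35 DHS of this list the median difference was 8.87 points in males and 10.9 in females. The acute phase list had 3 members of 29, the Saa1 pair and a DHS near the interleukin receptor gene Il1r1. The interval of the interferon list begins near the share over all shared DHS (4.21%), and no list was tested.

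On the lists of metabolism between 2.08% and 4.35% of the shared DHS were members. Fatty acid oxidation had 2 of 96 (the start site of Acaa1b and a distal DHS of Acsl1) beside 7 CAST-higher DHS, lipogenesis 4 of 98 (Elovl2, Mlxipl, Pparg and Thrsp) and cholesterol and bile acid genes 2 of 94. Of the latter, Cyp8b1, the sterol 12-alpha-hydroxylase of cholic acid synthesis, ranked 53.7 and 28.6 in male and female B6 and 28.4 and 2.86 in male and female CAST at its start site. Glucose and insulin genes had 6 of 141, among them a DHS 15330 bp from G6pc, the glucose-6-phosphatase of glucose release, with ranks of 69.2, 51.3, 19.2 and 20.5 in the same order. Amino acid and urea cycle genes had 4 of 92, among them DHS nearest to Hpd and Agxt, which encode enzymes of tyrosine and glyoxylate metabolism.

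Among regulators, hepatocyte transcription factors had 3 members of 101, among them DHS nearest to Cebpa and Cebpb. The Cebpa DHS, 30297 bp from the start site, ranked 72.2 and 84.7 in male and female B6 and 52.9 and 45.5 in male and female CAST. Nuclear receptors had 6 of 121, with the largest difference near Nr3c1, the glucocorticoid receptor, at 74.1, 70.1, 33.4 and 19.1. The circadian clock list had 2 of 67, a DHS in an intron 18961 bp from Per2 at 77.1, 67.5, 14.2 and 22.3 and the start site of Bhlhe41. Genes of the growth hormone axis had 1 of 83, a DHS in an intron of Cux1, a homeodomain factor, at 52.7, 55, 27.2 and 29.1. Plasma proteins had 4 of 138, among them the complement component C3 at its start site with 76.4, 67.1, 50.8 and 12.6. Apolipoproteins had 2 of 54, both of Apoh, and iron and heme genes 2 of 45 (Smad7 and Urod).

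The male rank was the higher one in most members, as it was in most of all shared DHS. The male minus female difference had a median of 10.1 points in B6 and of 18.9 in CAST, against 7.50 and 9.73 over all shared DHS. The gap between these medians restates the larger strain difference in females, which the choice used and which turned round with ranks over the shared DHS only. A rank at least 15 points higher in males in both strains was found in 205 members (27.1%), in 198 CAST-higher DHS (23.9%) and in 16.9% of all shared DHS. A rank higher in females by that margin in both strains was rare, in 0 members, 0 CAST-higher DHS and 8 of all shared DHS (0.0444%). The male lists held more peaks (38751 in B6 and 39562 in CAST) than the female lists (26271 and 24888). A rank is relative to its own list, so these differences are no measure of male-biased opening. The part of list length was not tested. The paper's own comparison of the sexes found more female-biased than male-biased DHS in both strains. Within bands of mean rank, a split added after seeing the data, the members' share was 40.9% at 20 to 40, 33.0% at 40 to 60 and 9.48% at 60 to 80, where all shared DHS had 36.3%, 32.5% and 12.7%, so at a matched mean rank the members were near all shared DHS.

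The 4 lists held between 24888 and 39562 peaks. The genome-wide background was 15.35 reads in B6 males, 13.93 in B6 females, 14.25 in CAST males and 7.94 in CAST females. It was thus clearly lower in female CAST only. Median peak height over all shared DHS was 146 reads in each male list but 76 in B6 females and 56 in CAST females. Start sites of hepatocyte markers were open in all 4 lists for 11 of 15 genes, and those of Kupffer cell markers (0 of 8) and lymphocyte markers (0 of 10) in no list. Endothelial markers were open at 8, 5, 3 and 2 of 12 genes in B6 males, female B6, male CAST and female CAST, and stellate markers at 5, 1, 3 and 0 of 10, so markers of these cell types were open at more genes in B6 males. Of the shared DHS nearest to endothelial markers 1 of 13 (7.69%) was a member, at Lyve1, and of those nearest to stellate markers 1 of 4 (25%), at Hgf, beside 4.21% over all shared DHS. The median B6 minus CAST differences of these DHS were 7.90 points in males and 7.51 in females for endothelial and 11.9 and 17.8 for stellate markers, above the 0.240 and 1.60 of all shared DHS. Hepatocyte markers, with 51 shared DHS, had 3 members (5.88%) and 3 CAST-higher DHS and medians of -0.932 and 0.660. Other cell types did not all go toward B6: the 1 shared DHS nearest to a Kupffer cell marker was CAST-higher (-28.3 points in males and -29.3 in females), the 1 nearest to a lymphocyte marker (Il7r) was a member, and bile duct markers had medians of -5.62 and 3.20 over 5 DHS. The part of cell composition in the strain difference was not tested.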

How the data were processed

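DNase-seq peaks were analysed from 4 deposited lists, 1 for each of male B6, female B6, male CAST and female CAST, 4 libraries pooled in each. The authors aligned reads with Bowtie2, B6 reads to mm9 and CAST reads to mm9 with CAST variants written in, returned CAST positions to mm9 and called peaks with MACS2. The deposited values are fold enrichment, a ratio of the summit pileup to the local background, with a -log10 p-value and a -log10 q-value for each peak. A score column of the deposited lists (10 times the -log10 q-value, cut to a whole number) was not analysed. Read counts per library were not used here, so depth is given as each list's background.

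Peaks on chromosomes 1 to 19 were joined at an overlap of 1 bp, and ranks of the highest fold were taken within each list. Pileups and local backgrounds were recovered from fold and p-value, and between 99.86% (male B6) and 99.96% (female B6) of the pileups of a list came out whole within 0.02 reads; the others were left out. Windows, motifs and 31-base words (the last added after seeing the reference) were read from mm9, which was not soft-masked, so no repeat share is given. The nearest of 72385 annotated start sites named each region. Genes named are the 20 members with the largest smaller difference, up to the first 3 of each gene list by the same order and the DHS next to the limit, and sequences are those of the first 4 distal and 2 promoter members. Adra1a, Mogat1, 4933407C03Rik, the second DHS of Apoh, Pygl and Saa1, Thrsp, Irf9 and Cdo1 were named after their values were seen. Some items that the rule would name are not reported here. The members, the gene lists and the motifs were chosen with earlier results of these data known. Scripts were tested on simulated data. Shares have Wilson 95% intervals, which cover counting error only. No test between groups was made, because each group is 1 pooled list. Python 3.11.15, numpy 2.4.6, pandas 2.3.3, scipy 1.17.1, numba 0.67.0 and matplotlib 3.10.9 were used.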

Additional observations from a re-analysis of the deposited data

Results flagged for a closer look

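The DHS over the start site of Cdo1, which encodes the cysteine dioxygenase of taurine synthesis (chr18:46887492-46888429), was the 1 member whose sex difference had opposite signs in the strains and was at least 15 points in each. It ranked 62.5 in B6 males, 79.5 in B6 females, 45.3 in CAST males and 26.9 in CAST females. The male minus female difference was -17.0 points in B6 and 18.4 in CAST, so that the strains differed by -35.4 points. With 1 pooled list for each group this difference was not tested.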

How the results depend on the processing

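No paired analysis was possible because the libraries of a group, which share replicate numbers across groups in the labels, were pooled into 1 peak list, and for the same reason no library could be left out. The number of members was 1535 with a limit of 10 points and 383 with 20. Ranking by -log10 q-value gave 712 members (599 of them among the 757), ranking by pileup 700 (456 among the 757, 60.2% of them), ranking over shared DHS only 1131, single peaks only 716, and joining only peaks that overlap by 0.5 of both lengths 628. Centring rank differences on their median gave 706, and centring within GC bands, both chosen after seeing the data, 717. The promoter-distal share was 48.9% with a limit of 10 points, 59.8% with 20, 60.8% with a promoter limit of 1 kb and 61.9% with centring within GC bands. With windows of 75 bases on each side the shares over all members were 20.7% for SP/KLF, 3.57% for the CTCF core, 3.70% for ETS, 3.57% for STAT, 7.66% for CEBP, 10.7% for NFI, 5.42% for FOXA, 0.661% for HNF6, 11% for nuclear receptor and 4.49% for AP-1 motifs, as shorter windows hold fewer matches. In these windows CAST-higher and all shared DHS had 7.01% and 4.47% for STAT, 0.726% and 3.53% for the CTCF core and 6.53% and 22.4% for SP/KLF. The promoter-distal shares were not recomputed in these windows. The share of neighbours higher in B6 was 30.5% within 50 kb, 24.5% within 10 kb and 34.3% within 200 kb. Members on a function list numbered 95 when any start site within 50 kb counted and 125 with a limit of 10 points. The interferon and MHC list then had 9 of 107 (8.41%) and 11 of 35 (31.4%), beside 4.38% and 9.12% over all function lists and, with a limit of 10 points, 8.53% of all shared DHS. The cause of these changes was not tested. The main limits are the single list for each group and the alignment of CAST reads to another sequence. Others are the lower depth of the female CAST list and the lower peak heights of both female lists.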

Other observations

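The members were spread over all 19 autosomes and made up between 2.57% (chromosome 18) and 5.51% (chromosome 15) of the shared DHS of a chromosome. For 271 of the 737 nearest genes the member was the only shared DHS. Nearest genes were protein-coding for 682 members. 23 members ranked at 90 or above in both B6 lists and 6 ranked under 10 in both CAST lists. For these counts of genes and members no share over all shared DHS is given, so they show nothing particular to the members.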
